A study of Mus musculus with 2 samples.

Results

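Xcr1 type 1 dendritic cells were identified in 2 single-cell RNA libraries of optic nerve from Nf1OPG mice, a model of neurofibromatosis type 1 optic glioma. A cell was a member when it held at least 2 UMIs (counted mRNA molecules) of Xcr1 plus Clec9a, at least 5 UMIs of the MHC class II genes H2-Aa, H2-Ab1 and H2-Eb1 together, and at most 1 UMI of Cd3d, Cd3e and Cd3g together. Of 25652 cells kept after filtering, 500 met this rule, which is 1.95% (95% exact binomial interval 1.78 to 2.13). The library named C-ON held 104 of them among 8834 kept cells (1.18%, 0.963 to 1.42), and the library named FMC_new held 396 among 16818 (2.35%, 2.13 to 2.60).

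Both libraries came from mice of 12 weeks of age, each from the pooled nerves of 10 animals, and both carry the genotype label NF1-OPG. In this model (Nf1 flox/mut; GFAP-Cre), 1 Nf1 allele is mutated in every cell and the other is lost only where the GFAP promoter drives Cre, so dendritic cells are expected to be Nf1 heterozygous. C-ON is also labelled control, and what sets FMC_new apart is not given in the labels. No treated or wild-type library was analysed here, so the values describe these cells within libraries labelled as Nf1OPG optic nerve and address no treatment. Each library is 1 pool, and the tests held library as a term. The p-values below therefore measure how differences between kinds of cell varied across the 2 pools, not the spread in level between pools.

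Type 1 dendritic cells are the antigen-presenting cells specialised in taking up dying cells and showing their antigens on MHC class I to CD8+ T cells, a process called cross-presentation. They depend on the transcription factors IRF8 and BATF3. CLEC9A is a receptor for actin filaments exposed on dead cells, and XCR1 is the receptor for the chemokine XCL1, which NK cells and activated CD8+ T cells secrete.

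Sequences just upstream of 4 genes are shown because they stand for what sets the cells apart here. Xcr1 and Clec9a chose the members, Cyp8b1 was among the genes with the largest fitted difference in all 3 comparisons below, and Cd207 was among them in 2. Each is the 250 bases before the RefSeq start of transcription on the GRCm38.p6 assembly, written 5′ to 3′ on the gene's own strand. Xcr1 lies on the minus strand (chr9:123862030-123862279), Clec9a on the plus strand (chr6:129408612-129408861), Cyp8b1 on the minus strand (chr9:121916306-121916555) and Cd207 on the minus strand (chr6:83677858-83678107). Capitals mark matches on either strand to an IRF half-site (AANNGAAA) or an AP-1 site (TGANTCA), the motif kinds bound by IRF8 and by BATF3 with its JUN partners.
Xcr1: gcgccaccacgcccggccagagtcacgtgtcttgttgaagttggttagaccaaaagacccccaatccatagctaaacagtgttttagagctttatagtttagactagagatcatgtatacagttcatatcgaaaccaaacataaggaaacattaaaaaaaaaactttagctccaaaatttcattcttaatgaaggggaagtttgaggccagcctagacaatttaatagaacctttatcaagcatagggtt
Clec9a: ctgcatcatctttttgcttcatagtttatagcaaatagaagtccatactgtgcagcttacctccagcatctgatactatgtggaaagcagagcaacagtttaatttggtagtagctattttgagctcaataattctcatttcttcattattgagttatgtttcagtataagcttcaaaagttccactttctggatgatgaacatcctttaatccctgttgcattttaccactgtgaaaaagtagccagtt
Cyp8b1: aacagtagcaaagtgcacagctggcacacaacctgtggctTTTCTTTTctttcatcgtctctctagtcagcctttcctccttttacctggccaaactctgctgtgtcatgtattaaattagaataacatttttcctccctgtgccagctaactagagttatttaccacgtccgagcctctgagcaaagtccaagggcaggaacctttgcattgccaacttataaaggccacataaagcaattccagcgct
Cd207: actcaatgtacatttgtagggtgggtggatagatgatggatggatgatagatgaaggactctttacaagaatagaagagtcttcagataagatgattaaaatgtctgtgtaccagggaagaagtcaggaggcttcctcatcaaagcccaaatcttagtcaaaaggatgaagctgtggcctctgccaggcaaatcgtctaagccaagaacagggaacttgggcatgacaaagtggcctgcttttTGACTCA
The Cyp8b1 window held an IRF half-site match 210 bases before the start, and the Cd207 window an AP-1 match 7 bases before it. Neither motif was found in the Xcr1 and Clec9a windows. Among 12 genes searched (these, and the other 8 genes named for the highest fitted fold change over Cd209a dendritic cells), 3 had an IRF match and 1 an AP-1 match. Some genes have several starts, so these matches lay in 3 and 1 of 16 windows. Of all 32851 such windows, 21.3% held the IRF half-site and 6.75% the AP-1 site, and the matches describe only the letters of these windows.

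Of the members, 376 (75.2%) held UMIs of both Xcr1 and Clec9a, 101 held Clec9a only and 23 held Xcr1 only. The median member had 6 UMIs of the pair (quartiles 3 and 10, maximum 50) and 335.5 class II UMIs. These values chose the cells and are given as a description. At the edge of the rule, 112 members had exactly 2 UMIs of the pair, while 289 cells with 1 UMI that met the other limits stayed outside. Naaa, a lysosomal amidase typical of type 1 dendritic cells, was seen in 43.9% of the 289 cells outside, 58.9% of the 112 members at the limit and 94.1% of the 388 members with 3 or more. Cd209a, a marker of type 2 dendritic cells, went from 15.6% and 24.1% to 1.80% over the same steps. Median depth also differed between these cells, at 5237, 6540.5 and 10708.5 UMIs, and C1qa, a macrophage gene, was in 50.5%, 18.8% and 13.4%. In macrophages marked by C1q genes (median 4021 UMIs), Naaa was in 23.95% of cells and Itgae, the CD103 integrin chain, in 2.84%.

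**Figure D1:**
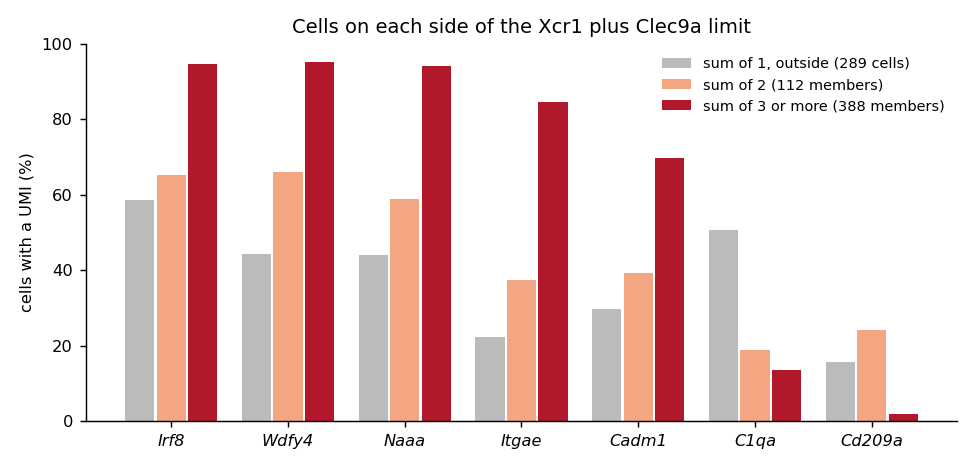
Percent of cells with at least 1 UMI of 7 genes (bars), for cells with 1 UMI of Xcr1 plus Clec9a, which the rule left outside, for members with 2 and for members with 3 or more, both libraries together. Itgae was in 22.1%, 37.5% and 84.5% of cells across the 3 bars, and Cd209a was in 1.80% of the members with 3 or more.

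A sign of another cell type (macrophage, B cell or oligodendrocyte genes) was present in 93 members (18.6%). Of the 500, 33 met the limit for C1q macrophages and 54 had at least 5 UMIs of the oligodendrocyte genes Mobp, Mag and Mog. The limit of the Cd209a dendritic cells was met by 29 members, 2 in C-ON and 27 in FMC_new. Meeting it did not count as a sign of another type. All of these cells were kept and no doublet caller was run. Some results, not all, are given with and without the cells bearing a sign of another type. FMC_new also carried pituitary RNA in every dendritic cell class: growth hormone (Gh) stood at 0 and 2788 CPM in the members of C-ON and FMC_new, against 0 and 8393 CPM in the Cd209a dendritic cells. Whether any FMC_new cells came from tissue beside the nerve was not tested. The libraries shared 296 barcodes, and no member shared a barcode with a member of the other library.

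To place the cells among their neighbours, each library's counts were summed over members and over 3 other classes set by marker limits: dendritic cells with at least 2 UMIs of Cd209a (Cd209a DC, 703 cells), dendritic cells with at least 5 UMIs of the migration genes Ccr7, Fscn1 and Ccl22 (Ccr7 DC, 304 cells), and macrophages with at least 5 UMIs of C1q genes (C1q macrophage, 2956 cells). Members made up 28.9% of the 3 dendritic cell classes in C-ON and 34.5% in FMC_new. These shares count cells with a sign of another cell type, which were unevenly spread over the classes. Without such cells, C-ON kept 90 members, 110 Cd209a DC and 26 Ccr7 DC, and FMC_new kept 317, 369 and 80. Levels are CPM, a gene's UMIs scaled to all summed UMIs of the class, given for C-ON and then FMC_new. The 24 genes used in any limit were left out of the tests, and 11732 genes were tested by edgeR's quasi-likelihood test with library as a term, with Benjamini-Hochberg adjustment over all of them. A gene that was not called may still differ between classes.

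The members carried the type 1 program that the label names, which is a check of the rule and not a finding. The summed counts of the members came to 1029063 UMIs in C-ON and 3814240 in FMC_new. Their own marking genes stood at 334 CPM (95% interval 299.9 to 371.5) and 357 CPM (95% interval 339 to 377) for Xcr1 and at 374 CPM (95% interval 338 to 413) and 429 CPM (95% interval 409 to 451) for Clec9a, where exact Poisson intervals cover counting error only. The rule was applied before the Cd209a DC, Ccr7 DC and C1q macrophage classes were drawn, under the same limits on class II and Cd3, so their cells could hold at most 1 UMI of Xcr1 plus Clec9a and their low level follows from the limits: Xcr1 was at 0 and 0.546 CPM in Cd209a DC, 0.975 and 0.991 CPM in Ccr7 DC and 0 and 1.635 CPM in C1q macrophages. Of 24 further type 1 genes tested, 21 were higher in members than in Cd209a DC (4.86% of all genes tested were higher), 1 was lower (7.05% of all were lower), and the median log2 fold change was 3.56.

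The transcription factors differed in degree. Irf8 stood at 988 and 952.5 CPM in members and 38.4 and 81.9 CPM in Cd209a DC (log2 fold change 3.94 ± 0.31 (SE), adjusted p = 4.44e-05). Batf3 differed less, at 124 and 126 CPM against 35.5 and 58.45 CPM (log2 fold change 1.33 ± 0.25 (SE), adjusted p = 0.00578), and Id2 was also higher (log2 fold change 1.83 ± 0.23 (SE), adjusted p = 5.01e-04). In contrast, Zbtb46, a factor shared by conventional dendritic cells, was at 52.5 and 85.5 CPM against 62.4 and 63.4 CPM and was not called (log2 fold change 0.06 ± 0.21, adjusted p = 0.910). Flt3, the growth factor receptor of the lineage, was not called either (149.7 and 208 CPM against 107 and 108 CPM, adjusted p = 0.0639). Nfil3, a factor that acts early in type 1 development, was the only listed gene that was lower (log2 fold change -1.07 ± 0.29 (SE), adjusted p = 0.0362).

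Wdfy4, which cross-presentation of cell-associated antigen requires, was at 928 and 1018 CPM in members and 113 and 199.9 CPM in Cd209a DC (log2 fold change 2.58 ± 0.24). Rab43, a trafficking GTPase with a role in cross-presentation, was higher by 1.59 ± 0.21 on the log2 scale. Cd36, a scavenger receptor for apoptotic cells, was at 218 and 252 CPM against 4.80 and 5.19 CPM (log2 fold change 5.47 ± 0.25). Both libraries placed these genes above the Cd209a DC, with no overlap of the library values. Itgae was at 461 and 444 CPM against 11.5 and 26.2 CPM (log2 fold change 4.47 ± 0.36 (SE), adjusted p = 4.45e-05), and Cadm1, an adhesion molecule, at 252 and 244 CPM against 46.1 and 52.2 CPM.

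**Figure D2:**
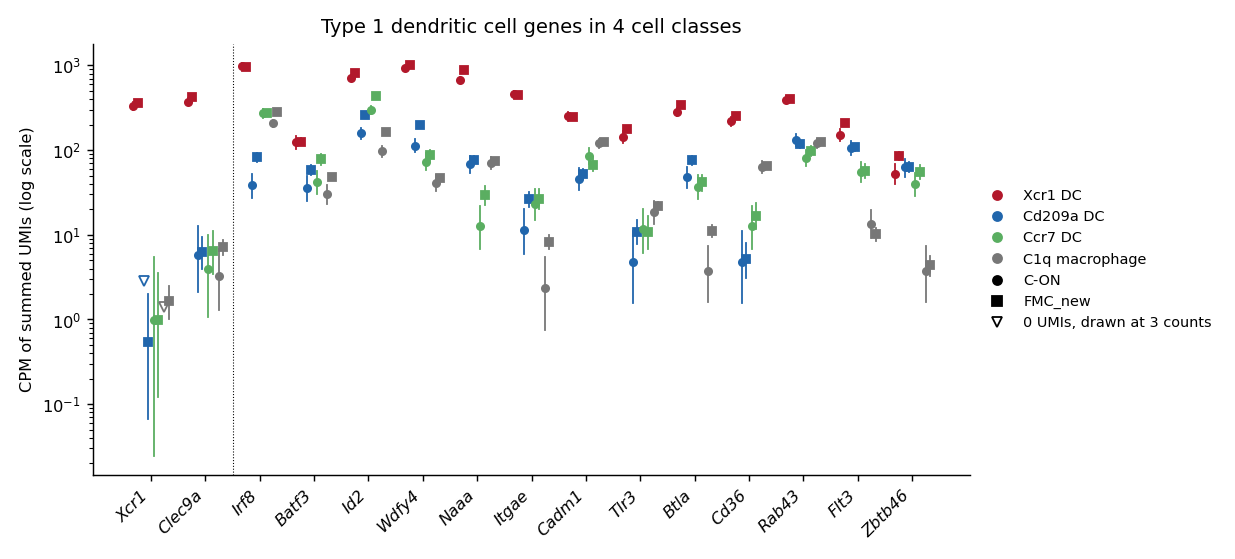
Level of 15 type 1 dendritic cell genes in 4 cell classes (CPM of summed UMIs, log axis), circles for C-ON and squares for FMC_new, with 95% exact Poisson intervals that cover counting error only; open triangles mark 0 UMIs drawn at 3 counts, and genes left of the dotted line belong to the membership rule. Members are highest for Irf8 and Itgae in both libraries, while Zbtb46 lies close together in the members and the Cd209a DC.

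The 10 named genes with the highest fitted fold change over Cd209a DC were Gramd2, Fzd1, Naalad2, Gcsam, Sema4f, Kcp, Cd207, Mab21l3, Esyt3 and Cyp8b1. Most had no UMI in the Cd209a DC of either library, so their folds are lower bounds set at 3 counts over both libraries. With no UMI on that side, the rank does not order these genes by the size of the difference. Gramd2 was at least 22.7-fold higher (70 UMIs in members), the Wnt receptor gene Fzd1 at least 22.0-fold (68 UMIs), and Cd207, which encodes langerin, at least 13.6-fold (42 UMIs). Gcsam, 1 of the listed type 1 genes and also known from germinal centre B cells, was the most abundant of them, at 152 and 152 CPM. Its 735 UMIs in members stood against 2 in Cd209a DC, a ratio of 357-fold (95% counting interval 98.4 to 2952). B cell marker genes summed to 7.77 and 33.8 CPM in the members, and their part in this level was not tested. Cyp8b1, a sterol hydroxylase of bile acid synthesis, had 156 UMIs against 1, a ratio of 151.5-fold (95% counting interval 26.8 to 6021).

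The type 2 program was lower in members than in Cd209a DC. That class was chosen by the type 2 gene Cd209a, so this too is a check of the limits. Of 10 type 2 genes tested, 8 were lower than in Cd209a DC (7.05% of all genes were) and 2 were not called. Their median log2 fold change was -2.97. Against Ccr7 DC 4 were higher and 4 lower (16.6% and 18.6% of all genes). Against C1q macrophages 3 were higher and 4 lower (14.2% and 17.6%). The lectin Mgl2 was at 4.86 and 72.9 CPM against 1176 and 1150 CPM (log2 fold change -5.09 ± 0.64 (SE), adjusted p = 4.65e-04), and the integrin Itgam at 5.83 and 9.18 CPM against 185 and 153 CPM (log2 fold change -4.50 ± 0.32 (SE), adjusted p = 3.67e-05). Among the members, 2 in C-ON and 27 in FMC_new also met the Cd209a DC limit, and their part in these levels was not tested. Sirpa, the receptor for CD47, and Irf4, the factor of type 2 cells, were lower by log2 fold changes of -3.03 ± 0.38 and -2.90 ± 0.45. Klf4 differed least of those called (-0.88 ± 0.24), and Ccr2 and Clec12a were not called. Of the 10 genes ranked lowest, Cd209b had no UMI in members against 72 in Cd209a DC, at least 24.7-fold lower, and the macrophage elastase gene Mmp12 had 2 against 232, or 119.5-fold (95% counting interval 32.7 to 992) lower. The others were Ptgir, Il23a, Zbtb32, Sphk1, Ccdc170, Retnla, Gfra2 and Fcrls.

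Several genes of the machinery that loads peptides onto MHC class I were higher in members than in Cd209a DC. The median log2 fold change of 16 genes was 0.70 against -0.02 over all genes. Of these 16, 8 were not called and 8 were higher than in Cd209a DC (4.86% of all genes tested were higher). These 8 were the immunoproteasome subunits Psmb9 and Psmb8, its activators Psme1 and Psme2, the peptide transporters Tap1 and Tap2, the chaperone Pdia3 and Nlrc5, the transactivator of class I genes. Psmb9 was at 714 and 621 CPM against 155 and 228 CPM (log2 fold change 1.73 ± 0.24 (SE), adjusted p = 8.29e-04), Tap2 at 217 and 210.5 CPM against 76.8 and 79.5 CPM and Nlrc5 at 76.8 and 66.6 CPM against 24.97 and 27.6 CPM. The class I molecules themselves were not called: H2-K1 had a log2 fold change of 0.51 ± 0.22 (adjusted p = 0.191), B2m of 0.15 ± 0.23 and H2-D1 of 0.06 ± 0.23.

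Apart from Wdfy4 and Rab43, the listed cross-presentation genes were mostly not called. Of 10 genes, 2 were higher, 1 was lower and 7 were not called (4.86% of all genes tested were higher and 7.05% lower). The lower gene was Cybb, the catalytic chain of the phagosomal NADPH oxidase (25.3 and 59.25 CPM against 319 and 280.2 CPM, log2 fold change -2.89 ± 0.38 (SE), adjusted p = 6.01e-04). For class II accessory genes, 10 of 11 were not called and the protease Lgmn was lower (32.1 and 39.6 CPM against 89.3 and 94.5 CPM, log2 fold change -1.46 ± 0.27). Ciita, the class II transactivator, was at 76.8 and 114 CPM against 102 and 90.95 CPM, so the order of the classes differed between the libraries.

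Sensors of pathogens differed in both directions. Tlr3, the endosomal receptor for double-stranded RNA, was at 144 and 177.5 CPM against 4.80 and 10.9 CPM (log2 fold change 4.10 ± 0.25 (SE), adjusted p = 1.49e-05). Tlr11 and Tlr12, which recognise profilin of protozoa, were higher by 2.13 ± 0.25 and 4.10 ± 0.50 on the log2 scale. Of 18 sensors tested these 3 were higher and 6 were lower (4.86% of all genes tested were higher and 7.05% lower). The lower ones included Tlr2 (14.6 and 14.2 CPM against 197 and 107 CPM, log2 fold change -3.42 ± 0.36), Tlr4 (-2.10 ± 0.43), Clec4n (-3.90 ± 0.45) and the inflammasome gene Nlrp3 (-2.65 ± 0.34).

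Some interferon-response genes were higher than in Cd209a DC. Of 14 genes, 7 were higher in members than in Cd209a DC (4.86% of all genes tested were) and 7 were not called. Their median log2 fold change was 0.68. Irf7 was at 603.5 and 289 CPM against 95.1 and 87.4 CPM (log2 fold change 2.10 ± 0.26 (SE), adjusted p = 4.22e-04), and the GTPase Iigp1 at 128 and 56.6 CPM against 7.68 and 10.9 CPM (log2 fold change 2.90 ± 0.54 (SE), adjusted p = 0.00530). Members of C-ON were above those of FMC_new for both genes, and in each library the members were above the Cd209a DC.

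**Figure D3:**
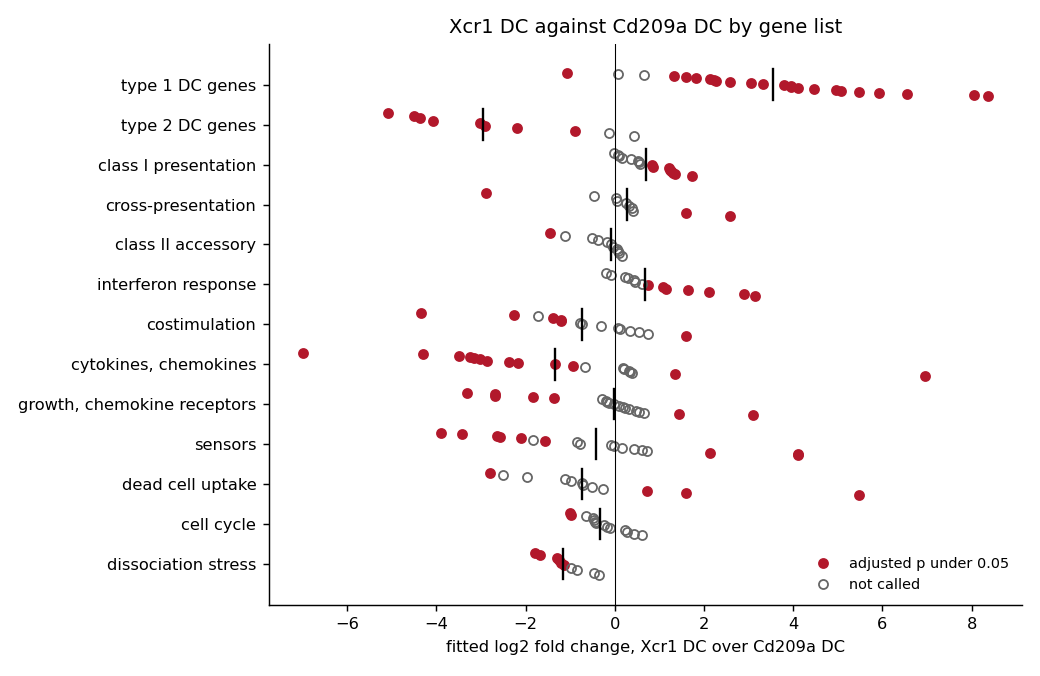
Fitted log2 fold change of Xcr1 DC over Cd209a DC (x axis) for each tested gene of 13 lists (rows), filled points for genes with adjusted p under 0.05 and open points for the rest; black bars are list medians. Type 1 genes have a median of 3.56, class I presentation genes lie mostly right of 0, and cytokine and stress genes lie mostly left of it.

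Most inflammatory cytokine and chemokine genes were lower in members. Of 19 genes tested, 11 were lower than in Cd209a DC and 2 were higher (7.05% of all genes were lower and 4.86% higher). Their median log2 fold change was -1.33. Il1b was at 319.7 and 501 CPM against 3341 and 3307 CPM (log2 fold change -3.16 ± 0.27 (SE), adjusted p = 5.87e-05), Tnf at 23.3 and 52.7 CPM against 275 and 246 CPM (log2 fold change -2.86 ± 0.35 (SE), adjusted p = 3.91e-04) and the chemokine Ccl3 at 48.6 and 34.6 CPM against 290 and 321.5 CPM. No library value of the members reached that of the Cd209a DC for these genes. Genes induced by tissue dissociation moved the same way: 6 of 10 were lower in members, 4 were not called, and the list summed to 5623 and 6865 CPM against 12597 and 13205 CPM in the Cd209a DC, with no gene at 0. Their part in the cytokine result was not tested. The summed level of macrophage genes was also lower, at 631 and 812 CPM against 2009.7 and 1566 CPM, and 2 of these 10 genes were at 0 in the members of C-ON. With cells bearing markers of another type left out, 18 cytokine genes were tested, of which 11 were lower and 2 higher. Of all 10097 genes tested in that fit, 916 were lower and 755 higher.

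Of 15 costimulatory genes tested, 5 were lower (7.05% of all genes were) and 1 was higher, a share near the 4.86% of all genes. Tnfsf9, the 4-1BB ligand, was at 25.3 and 54.0 CPM against 782 and 790.5 CPM (log2 fold change -4.36 ± 0.34 (SE), adjusted p = 4.45e-05), the integrin ligand Icam1 at 55.4 and 90.2 CPM against 338 and 298 CPM, and Cd80 at 33.0 and 43.3 CPM against 70.1 and 95.05 CPM (log2 fold change -1.21 ± 0.20). Cd86, the other B7 ligand, was not called (451 and 551 CPM against 330.3 and 315.5 CPM, adjusted p = 0.138). The higher gene, also listed under dead cell uptake, was Havcr2, encoding TIM-3, a checkpoint receptor on dendritic cells (272 and 253 CPM against 91.2 and 75.1 CPM, log2 fold change 1.59 ± 0.26 (SE), adjusted p = 0.00253).

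Among 19 growth factor and chemokine receptors, 2 were higher and 5 were lower (4.86% of all genes tested were higher and 7.05% lower). Cxcr3, the receptor for the interferon-induced chemokines Cxcl9 and Cxcl10, was at 66.1 and 52.4 CPM against 2.88 and 8.74 CPM (log2 fold change 3.10 ± 0.50 (SE), adjusted p = 0.00212), and the stem cell factor receptor Kit at 145 and 128 CPM against 44.2 and 49.2 CPM (log2 fold change 1.45 ± 0.24 (SE), adjusted p = 0.00240). The lower ones included Csf1r (18.5 and 24.6 CPM against 158 and 105 CPM), Cx3cr1, Ccr1 and Il10ra. In dead cell uptake genes, 3 of 12 were higher (Cd36, Havcr2 and Itgav) and 1 was lower, the endocytic receptor Lrp1 (log2 fold change -2.79 ± 0.33). Of 14 cell cycle genes 2 were lower (Birc5 and Ube2c), where 7.05% of all genes were, and 12 were not called. Nf1 was at 74.8 and 93.1 CPM in members and 54.7 and 51.1 CPM in Cd209a DC, and was not called (log2 fold change 0.60 ± 0.19, adjusted p = 0.0666).

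The count of genes called against Cd209a DC (570 higher, 827 lower) depended on the model. Without the library term it was 289 and 413, and with these 2 classes alone it was 930 and 1249. The Cd209a DC class also held cells with markers of other types. With such cells left out of every class, 110 and 369 Cd209a DC remained of 162 and 541. The calls were then 755 higher and 916 lower of 10097 genes tested. Of 110 listed genes with values that entered this fit, 2 lost their call and 5 gained one. Of the 20 ranked genes, 14 entered it and 1 lost its call.

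A small mature group held nearly all Il12b (chr11:44400063-44414033, plus strand, GRCm38). Of the members, 22 (4.40%, 2.78 to 6.59) also met the limit of the Ccr7 DC class, 3 in C-ON and 19 in FMC_new. Il12b encodes the p40 chain of IL-12, the cytokine by which type 1 dendritic cells support T cells and NK cells. Members held 426 Il12b UMIs in all, and 404 of them (94.8%) lay in 10 of these 22 cells. In C-ON it was 50 UMIs in 2 of 3 mature cells, and in FMC_new 354 UMIs in 8 of 19, with up to 114 in a single cell. Leaving out the 7 mature members with a sign of another cell type left 383 UMIs in 9 of 15 cells. The remaining 478 members held 22 Il12b UMIs in 9 cells.

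The mature members also differed in other genes, described here over both libraries since the cells were split by measured genes. Ccl5 stood at 1638 CPM (95% interval 1478 to 1810) in mature members and 132.5 CPM (95% interval 121 to 145) in the members that were neither mature nor cycling. Relb, a NF-kB factor of maturation, was at 294 CPM (95% interval 228 to 371.5) against 37.9 CPM (95% interval 31.9 to 44.6), and Cd40 at 217 CPM (95% interval 162 to 285) against 33.65 CPM (95% interval 28.05 to 40.0). Several type 1 genes were lower in mature members, with Wdfy4 at 391 CPM (95% interval 315.5 to 480) against 989 CPM (95% interval 958 to 1021), Tlr3 at 12.8 CPM (95% interval 2.63 to 37.3) against 168 CPM (95% interval 155 to 181), and Irf8 at 540.3 against 989 CPM. Batf3, also a type 1 gene, was higher, at 204 against 119.8 CPM. Of the 22 cells, 13 had exactly 2 UMIs of Xcr1 plus Clec9a, so the group sat near the limit of the rule.

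**Figure D4:**
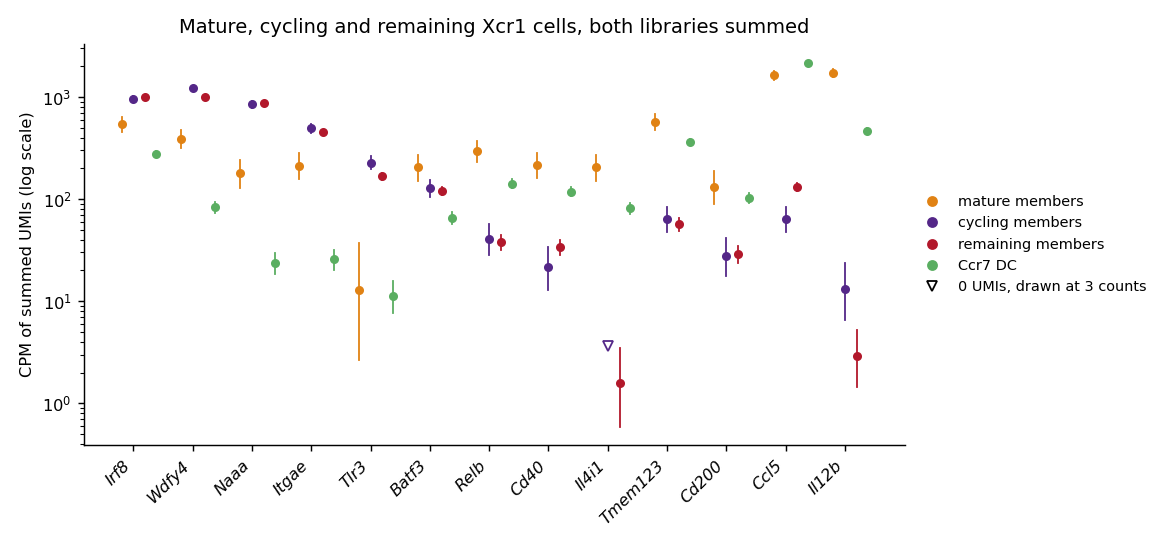
Level of 13 genes (CPM of summed UMIs, log axis, both libraries together) in mature members (22 cells), cycling members (73 cells), remaining members (405 cells) and Ccr7 DC (304 cells), with 95% exact Poisson intervals for counting error only; the open triangle marks 0 UMIs drawn at 3 counts. Il12b is at 1719 CPM in mature members and 2.915 CPM in remaining members, while Wdfy4 is at 391 and 989 CPM.

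The comparison of Il12b between classes rested on this group. Over all members Il12b was at 49.6 and 98.3 CPM, against 0 and 0.819 CPM in Cd209a DC (0 and 3 UMIs), and it was called higher (adjusted p = 4.52e-04). The Cd209a DC limit was applied after that of the Ccr7 DC, so cells past the Ccr7 DC limit could not enter it, whereas the 22 mature cells stayed among the members. Without them the log2 fold change fell to 2.70 and was not called (adjusted p = 0.237), and the call of the migration-associated gene Nudt17 was lost too (1.38, adjusted p = 0.607). The other cytokine gene called higher, the chemokine Cxcl9, was at 321 and 264 CPM against 121 and 95.3 CPM (log2 fold change 1.36 ± 0.39 (SE), adjusted p = 0.0452), and without the mature members it missed the limit (1.31, adjusted p = 0.0593). Cd40, not called with all members, was lower without the mature ones (-1.01, adjusted p = 0.0138).

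Cycling was seen in both libraries. An Mki67 or Top2a UMI was present in 13 members of C-ON (12.5%) and 64 of FMC_new (16.2%), and over both libraries in 15.4% of members, 16.6% of Cd209a DC, 16.4% of Ccr7 DC and 5.45% of C1q macrophages. With every cell thinned to 1000 UMIs the shares were 2.80%, 4.42%, 2.96% and 1.72%. Apart from mature cells, 73 members were cycling by these genes. Their type 1 genes were near those of the remaining 405 members, with Irf8 at 948 against 989 CPM and Wdfy4 at 1212 against 989 CPM. Pclaf, a replication factor not used in the split, was at 219 against 4.50 CPM.

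Compared with the Ccr7 DC, members were higher for most type 1 genes and lower for most migration-associated genes. Of 24 type 1 genes 23 were higher (16.6% of all genes tested were higher), and of 11 migration-associated genes 9 were lower (18.6% of all were lower). Naaa was at 673 and 879 CPM against 12.7 and 29.2 CPM (log2 fold change 5.49 ± 0.31 (SE), adjusted p = 7.90e-06) and Wdfy4 at 928 and 1018 CPM against 73.1 and 87.7 CPM (log2 fold change 3.95 ± 0.26 (SE), adjusted p = 9.72e-06). Ccr2, a receptor by which blood-borne cells enter tissue, was at 202 and 299 CPM against 18.5 and 27.25 CPM (log2 fold change 3.73 ± 0.33 (SE), adjusted p = 2.12e-05). Ccl5 was lower, at 106 and 217 CPM against 1965 and 2224 CPM (log2 fold change -3.43 ± 0.33 (SE), adjusted p = 3.31e-05), and Il12b too, at 49.6 and 98.3 CPM against 389 and 508 CPM (log2 fold change -2.37 ± 0.44 (SE), adjusted p = 0.00218). DESeq2 gave Il12b a log2 fold change of -2.45 and did not call it (adjusted p = 0.323). Tmem123, a mark of mature dendritic cells, had a log2 fold change of -1.86 ± 0.20 and Relb of -1.14 ± 0.22. Of 14 interferon-response genes 2 were higher, a share near the 16.6% of all genes, and 6 were lower. Among the lower ones was Iigp1 (128 and 56.6 CPM against 754 and 230.4 CPM), on the opposite side from the Cd209a DC comparison. Of 16 class I genes 4 were higher and 12 were not called, and the list summed to 11388 and 10826 CPM in members against 13482 and 12154 CPM. Of 11 class II accessory genes 8 were higher and 2 were lower, with H2-DMb1, a chain of the peptide exchanger, at 709 and 589 CPM against 157 and 196 CPM. By rank, Cyp8b1 (156 UMIs against 0) was at least 32.7-fold higher and Notch4 (124 against 0) at least 26.0-fold, followed by Cd300c, Ptgis and Cd207, while Ly6k (0 against 31) was at least 16.4-fold lower, followed by Cacng5, Olfml2b, Zbtb32 and Saa3. For Saa3 the sign turned once cells with other-type markers were left out (log2 fold change 2.53, adjusted p = 0.740).

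The Ccr7 DC class held many cells with markers of other types. Its oligodendrocyte genes summed to 30208 and 14703 CPM against 3920.1 and 2889 in members, its macrophage genes to 2112 and 4505 against 631 and 812, and its B cell genes to 178 and 524 against 7.77 and 33.8. With such cells left out of every class, 26 and 80 Ccr7 DC remained of 94 and 210. The calls then fell to 742 higher and 1069 lower of 10097 genes tested, from 1947 and 2187 of 11732. The list counts that follow are to be read beside these totals. Of 23 type 1 genes, 17 were then higher and 2 lower, and all 11 migration-associated genes were lower. The log2 fold change was then 4.51 for Naaa, 2.56 for Wdfy4 and -5.00 for Ccl5. In contrast, the call of Irf8 was lost (from 2.18 to 0.96, adjusted p = 0.0758), as was that of the class II invariant chain Cd74 (from 1.39 to 0.48, adjusted p = 0.0973). Class II accessory genes went from 8 higher and 2 lower of 11 to 4 and 3, and dead cell uptake genes from 2 higher and 7 lower of 12 to 2 and 2 of 11. Interferon-response genes became 2 higher and 3 lower, and class I genes 3 and 3. Costimulatory genes went from 2 higher and 8 lower of 15 to 1 and 12 of 16, with Cd40 at -2.51.

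Compared with the C1q macrophages, members were higher for dendritic cell genes and lower for macrophage receptors, chemokines and engulfment genes. Of 24 type 1 genes 23 were higher (14.2% of all genes tested were higher), and of 12 dead cell uptake genes 9 were lower (17.6% of all were lower). Zbtb46, not called against the Cd209a DC, was at 52.5 and 85.5 CPM against 3.725 and 4.36 CPM (log2 fold change 4.25 ± 0.25 (SE), adjusted p = 1.77e-06), and Flt3 at 149.7 and 208 CPM against 13.5 and 10.2 CPM (log2 fold change 4.14 ± 0.24 (SE), adjusted p = 1.64e-06). Csf1r, the receptor for CSF1 and the target of pexidartinib, was at 18.5 and 24.6 CPM against 849 and 824 CPM (log2 fold change -5.13 ± 0.40 (SE), adjusted p = 7.55e-06). The apoptotic cell receptor Mertk was at 1.94 and 8.13 CPM against 178 and 195 CPM (log2 fold change -4.99 ± 0.41 (SE), adjusted p = 1.05e-05), while Cd36 went the other way, at 218 and 252 CPM against 63.3 and 64.9 CPM (log2 fold change 2.02 ± 0.18 (SE), adjusted p = 1.75e-05). Of the 12 uptake genes, Cd36 and Havcr2 were the 2 higher in members, a share near the 14.2% of all genes.

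The chemokine genes that the study measured in optic nerve were lower in members than in macrophages. Ccl2 was at 35.0 and 46.9 CPM against 998 and 709.9 CPM (log2 fold change -4.19 ± 0.33 (SE), adjusted p = 7.15e-06), Ccl3 at 48.6 and 34.6 CPM against 705.5 and 655.5 CPM, Ccl4 at 306 and 547 CPM against 1315 and 1890 CPM and Ccl5 at 106 and 217 CPM against 853 and 824 CPM (log2 fold change -2.33 ± 0.32). Of 10 dissociation stress genes, 9 were also lower, and the list summed to 5623 and 6865 CPM in members and 15668 and 16579 CPM in macrophages. Its part was not tested. Of 16 class I genes 7 were higher and 9 were not called, led by Psmb9 (log2 fold change 1.73 ± 0.24). Interferon-response genes were 4 higher and 2 lower of 14, where 14.2% of all genes were higher and 17.6% lower. By rank, Cyp8b1, Gpr33, Gcsam, Gpr141b and H2-M5 were highest, with Gpr33 at 350 UMIs against 7, a ratio of 155-fold (95% counting interval 74.3 to 388). Npnt (0 against 339 UMIs, at least 36.5-fold lower), Tpbgl, Ccl24, Saa3 and Ecscr were lowest. Il12b was called higher (log2 fold change 3.47 ± 0.51), but without the 22 mature members it turned to -0.81 and was not called (adjusted p = 0.415).

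The ligand of XCR1 was carried by lymphocytes of the same libraries, grouped by marker genes into NK cells (299), CD8 T cells (2855) and other T cells (2687). Xcl1 was at 1113 and 1088 CPM in NK cells, 782 and 910.1 CPM in CD8 T cells and 134 and 137 CPM in other T cells, with a UMI in 72.6% and 71.7% of NK cells and 37.8% and 40.5% of CD8 T cells. In members it was at 0.972 and 4.46 CPM, with a UMI in 3.0% of cells, beside 4.60% of C1q macrophages, so Xcl1 in members was at or below this background. Flt3l, the growth factor for Flt3, was at 67.6 and 61.9 CPM in NK cells, 64.2 and 54.8 CPM in CD8 T cells and 8.75 and 11.8 CPM in members. Ifng, the interferon that induces Cxcl9, was at 120.3 and 125 CPM in CD8 T cells, 199 and 101 CPM in other T cells and 2.915 and 1.05 CPM in members. Thus, NK cells were highest for Xcl1 in both libraries, and T cells were highest for Ifng. The genes Csf2, Il23a and Ifnb1 had no UMI in members.

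**Figure D5:**
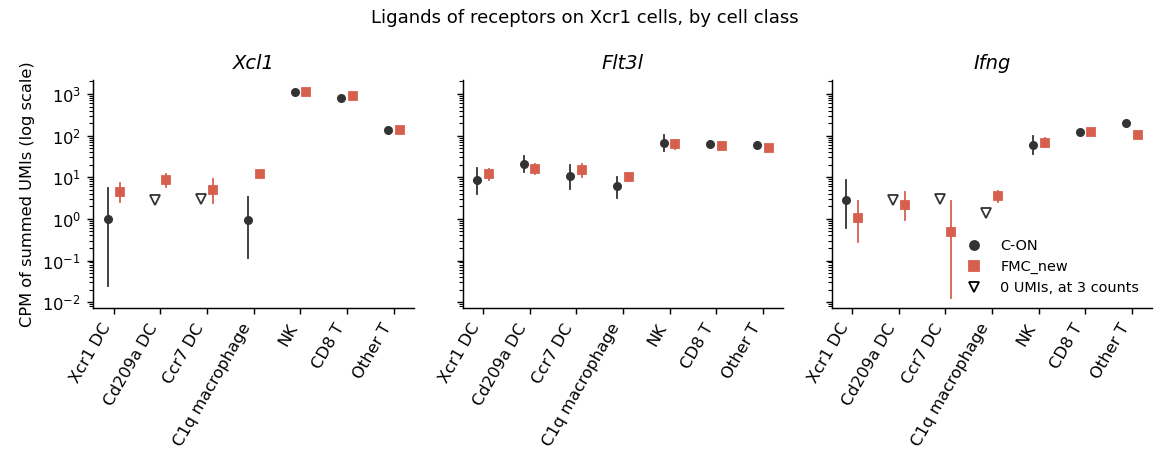
Level of Xcl1, Flt3l and Ifng (CPM of summed UMIs, log axis) in 7 cell classes, circles for C-ON and squares for FMC_new, with 95% exact Poisson intervals for counting error only; open triangles mark 0 UMIs drawn at 3 counts. Xcl1 is at 1113 and 1088 CPM in NK cells and 0.972 and 4.46 CPM in Xcr1 DC.

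Between the libraries, the members' levels were close for Irf8, Batf3, Cadm1, Gcsam and Rab43 (124 and 126 CPM for Batf3, 152 and 152 CPM for Gcsam) and further apart for other type 1 genes. Zbtb46 was at 52.5 and 85.5 CPM and Flt3 at 149.7 and 208 CPM, both higher in FMC_new. Ppt1, a lysosomal thioesterase, was at 1033 and 721 CPM and Irf7 at 603.5 and 289 CPM, both higher in C-ON. So was the heat shock gene Hspa1b, at 83.6 and 6.03 CPM. The 10 dissociation stress genes, of which Hspa1b is 1, summed the other way, to 5623 and 6865 CPM. The 10 listed plasmacytoid genes, of which Irf7 is one, summed to 1156 and 1313 CPM. Among them Siglech, Ly6d and Cox6a2, picked for their difference, were at 34.0 and 116 CPM, 11.7 and 107 CPM and 2.915 and 46.7 CPM, and each was higher in FMC_new. With 1 pool of mice for each library and no second pool under either label, these differences have no replicate and no test.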

How the data were processed

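Optic nerve cells from 2 pools of Nf1OPG mice were profiled with the 10x Genomics 5′ kit. The deposited files hold raw UMI counts per gene and barcode, made by the authors with Cell Ranger and the mm10 reference (32285 genes). The submitters' processing notes name version 7.2.0 and the study's methods 6.1.1, and neither says if reads in introns were counted, in which case UMIs would include unspliced RNA. The files are filtered barcode lists of 10845 (C-ON) and 21341 (FMC_new) barcodes with 85101211 and 129113325 UMIs.

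Barcodes with 500 to 5000 genes, 500 to 20000 UMIs and at most 5% mitochondrial UMIs were kept, as in the study, leaving 8834 and 16818 cells (median 6810.5 and 4676 UMIs). Doublets were not called. The members, gene lists and comparisons were chosen with earlier results of these data known. Each cell entered at most 1 class, with the Xcr1 rule applied first, then the Ccr7 DC, Cd209a DC and C1q macrophage limits. Counts were summed per library and class (4 classes, 2 libraries) and tested with edgeR 4.0.16 (quasi-likelihood, TMM, filterByExpr, library as a term because classes of 1 library share mice and preparation, 3 residual degrees of freedom) in R 4.3.3, with Benjamini-Hochberg adjustment and a limit of 0.05. The fit was tested on simulated data with a wider spread than was fitted here. Against the Cd209a DC it called 17 of 97 genes changed by 1 on the log2 scale. It called 73 of 97 changed by 2 and 3 of 11329 unchanged genes. CPM are per summed UMIs, shares carry exact binomial and CPM exact Poisson 95% intervals, and a count of 0 was bounded at 3 counts. Python 3.11.15 with numpy 2.4.6, scipy 1.17.1 and pandas 2.3.3 made the tables.

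Named genes were the 10 highest and 10 lowest by fitted log2 fold change among those called with the same sign in both libraries (5 and 5 for the Ccr7 DC and C1q macrophage comparisons, leaving out unnamed gene models), and members of the gene lists. Of 283 listed genes, 280 were found by symbol and the others were not analysed here. Values of a few listed genes are not reported here. Alternatives were DESeq2 1.42.0, its size factors, no library term, no filter on low counts, cells thinned to 1000 UMIs, other limits for membership, and cells with other-type markers, mature members or 1 library left out. Promoter windows came from RefSeq (GRCm38.p6), gene positions from GENCODE M21 (GRCm38).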

Additional observations from a re-analysis of the deposited data

Results flagged for a closer look

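Cells that met the marker limits of Xcr1 dendritic cells were also present among barcodes that the comparisons did not use. Of 6534 barcodes outside the limits on genes, UMIs and mitochondrial share, 54 met the membership rule (0.826%, 95% exact interval 0.621 to 1.08), 15 in C-ON and 39 in FMC_new. Their median was 23180.5 UMIs, 49 of the 54 exceeded the UMI limit and 27 the gene limit, and no barcode among them exceeded the mitochondrial limit. Another 44 kept cells met the rule but for having at least 2 Cd3 UMIs, 5 in C-ON and 39 in FMC_new, with a median of 6317.5 UMIs. Whether these barcodes held 1 cell or more was not tested.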

How the results depend on the processing

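The share of members among kept cells (1.95%) lay between 1.18% and 2.35% with either library left out, was 3.08% with a limit of 1 UMI of Xcr1 plus Clec9a and was 0.431% when each cell was thinned to 1000 UMIs before the rule, which was chosen after seeing the data. The other membership limits kept it between 1.47% and 2.03%. For the Cd209a DC, genes called higher and lower were 570 and 827 with library as the replicate block, 289 and 413 without the block, 222 and 320 in thinned cells (5597 genes tested), and 930 and 1249 with the 2 classes alone. For the Ccr7 DC they were 1947 and 2187, falling to 742 and 1069 without cells bearing other-type markers and to 391 and 646 in thinned cells. For the C1q macrophages they were 1661 and 2064, with 1042 and 1019 without the block and 562 and 793 in thinned cells. DESeq2, its size factors in edgeR, no filter on low counts and a limit of 3 UMIs stayed within 1.5 times of each count. Of 112 listed genes with values against the Cd209a DC, 26 lost their call without the block and 8 with DESeq2, and of the 20 ranked genes 8 and 3 did. The sign turned in the Ccr7 DC comparison without other-type cells for Saa3 (2.53), Id2 (-0.19), Zbtb46 (-0.79; -0.025 in thinned cells) and Cd83 (-0.87), and in the C1q macrophage comparison without mature members, also chosen after seeing the data, for Il12b (-0.81). Where fewer cells, UMIs or genes entered a fit, its counts are not matched in power to the others, and other causes were not tested. Of the 500 members, 102 met the rule after thinning to 1000 UMIs, so membership depended on depth.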
